A study of Mus musculus with 12 samples.

Results

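The classical histone deacetylases of the mouse were followed here in blood progenitors that carried a leukaemia fusion gene. They are Hdac1, Hdac2, Hdac3 and Hdac8 of class I, Hdac4, Hdac5, Hdac7 and Hdac9 of class IIa, Hdac6 of class IIb and Hdac11 of class IV. A probe set, the array's unit of measurement, was taken when the platform annotation gave it 1 of these symbols and no other. That rule found 17 probe sets of 10 genes, among 34945 probe sets of 18193 genes that carried a single symbol. The rule reads symbols and no expression value, although the family was picked with earlier results of these data known.

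RNA came from sorted bone-marrow cells without lineage markers or Flt3 and with c-Kit and Sca-1, here called KSLF cells, of otherwise normal mice whose strain and age are not given in the labels. After 24 h of culture in 10% serum, 50 ng/ml stem cell factor and 5 ng/ml interleukin 6, all cells met a retrovirus for 4 h, and those carrying its green fluorescent marker were sorted at the end of a further 20 h. The empty vector went into the MIB control group, numbered 3 to 7 (5 arrays). The vector with the fusion of CBFB and the myosin heavy chain MYH11 went into INV16, numbered 1 to 4 (4 arrays). The ACD mutant, numbered 1 to 3 (3 arrays), carried the same fusion lacking the assembly competent domain, a form described in the design text as non-leukemogenic. Each replicate was a separate sort and transduction. The fusion was expressed from a viral vector in cultured cells for about a day, so the groups model its early presence and not a leukaemia, and the level of the fusion itself was not measured here.

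Histone deacetylases remove acetyl groups from lysines of histones and of other proteins. Hdac1 and Hdac2 work inside the SIN3, NuRD and CoREST complexes and Hdac3 inside the NCoR and SMRT complex, while class IIa enzymes bind MEF2 transcription factors and leave the nucleus when kinases phosphorylate them. Core binding factor, the partnership of RUNX proteins with CBFB, directs blood formation, and HDAC8 is a known binding partner of the fusion protein. The comparisons ask which deacetylase transcripts differ when the fusion is present and when it lacks the domain through which it assembles.

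The arrays differed in ways that bear on all values below. The bacterial control transcripts BioC and BioB, added to every sample, differed by 1.07 to 1.21 on the log2 scale on INV16 replicates 1 to 3 and on MIB control replicates 3 to 5, and by -0.11 to 0.07 on the other 6 arrays. These are called the upper and the lower side of the spike-in split; the labels name no batch. The level of BioB itself was 7.1 to 7.5 on the ACD mutant arrays and 7.7 on INV16 replicate 4, against 8.4 to 8.9 on all others. That low level and the ACD mutant cannot be told apart, and a block by the split does not remove it. INV16 replicate 4 stood apart, with Pearson correlations of 0.886 to 0.909 with the other arrays across probe sets. Its mast cell and basophil markers averaged 10.10 log2 units against 6.38 to 7.11 elsewhere, and its progenitor markers 7.41 against 9.86 to 10.54. Of the 10 mast cell and basophil markers 9 lay above the range of the other 11 arrays and Mcpt8 below it (5.35 against 9.39 to 10.24). Of the 10 progenitor markers 6 lay below, Kit and Cd48 within, and Slamf1 (8.35 against 5.27 to 7.46) and Gata2 (11.74 against 9.67 to 11.26) above. Its Gapdh probe sets for the 3' and 5' ends of the transcript differed by 3.64, against 1.10 to 1.98 on 10 arrays and 3.17 on ACD mutant replicate 1. On the other 11 arrays Kit lay at 10.26 to 11.43 and Cd34 at 11.15 to 12.35, as the sort would give, while Flt3, which the sort selected against, lay at 8.03 to 9.76. INV16 replicate 4 was therefore kept out of the group values and fits and is described on its own, and the numbers of deacetylases and of related genes called are also given with all 12 arrays. In bulk RNA, a change in the share of cells of a type and a change in RNA per cell cannot be told apart.

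Hdac9 was the deacetylase with a higher transcript level in INV16. It encodes a class IIa enzyme that represses MEF2 targets. In INV16 replicates 1, 2 and 3 its probe set 1434572_at measured 7.85, 7.35 and 6.63 log2 units. In MIB control replicates 3 to 7 it measured 5.47, 6.27, 6.26, 5.99 and 5.85, and in ACD mutant replicates 1 to 3 it measured 6.36, 6.13 and 6.43. All INV16 arrays lay above all MIB control and ACD mutant arrays, and INV16 replicate 3 was the nearest to them. INV16 replicate 4, apart, measured 8.27.

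The means were 7.28 ± 0.61 (SD, n = 3) in INV16, 5.97 ± 0.33 (SD, n = 5) in MIB control and 6.31 ± 0.16 (SD, n = 3) in the ACD mutant. Hdac9 was thus 1.31 log2 units higher in INV16 than in MIB control (SE 0.24, 95% confidence interval 0.79 to 1.83, limma adjusted p = 0.0213), a fold of 2.48. Ordered from the most raised to the most lowered in INV16, it ranked 25 among the 22677 probe sets tested. The ACD mutant differed from MIB control by 0.34 (interval -0.19 to 0.86, adjusted p = 0.494). INV16 was 0.97 above the ACD mutant (interval 0.38 to 1.56), which did not pass the test after adjustment (adjusted p = 0.0926).

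The call for Hdac9 rested on the array set. With INV16 replicate 4 included the difference was 1.56, yet the adjusted p was 0.0666. Without INV16 replicate 1 it was 1.02 (adjusted p = 0.123) and without INV16 replicate 2 it was 1.27 (adjusted p = 0.0894), while the call held when any 1 of the other 9 arrays was left out. With the spike-in split as a block the difference was 1.28 (adjusted p = 0.0661). On the upper side alone, 3 arrays a group, the difference is the same by construction, since only MIB control held both sides. There the adjusted p was 0.214, with INV16 at 6.63 to 7.85 and MIB control at 5.47 to 6.27. The difference from the ACD mutant passed in 1 of 11 fits that left out 1 array, the fit without INV16 replicate 3 (1.29, limma adjusted p = 0.0276). It was 0.89 with the spike-in block (adjusted p = 0.497) and 1.22 with all 12 arrays (adjusted p = 0.225).

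The other Hdac9 probe set, 1421306_a_at, did not share this pattern. It lay between 4.53 and 4.93 log2 units on the 11 arrays, below the filter on low values (5.07), and was not tested. INV16 replicate 4 measured 4.66 there. The suffix a marks a probe set that reads several transcripts of its gene, and which Hdac9 transcripts either set reads was not examined here.

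RefSeq's table on GRCm38.p6 gives Hdac9 starts at separate places on the minus strand of chromosome 12. The 250 bases before each of 2 starts are printed because Hdac9 was the member called, and because RUNX proteins, which CBFB helps to bind DNA, recognise a short core motif. Capitals mark the match to TGNGGT on either strand, a looser pattern that includes the core TGTGGT but takes any base in place of N.
Hdac9, chr12:34917096-34917345: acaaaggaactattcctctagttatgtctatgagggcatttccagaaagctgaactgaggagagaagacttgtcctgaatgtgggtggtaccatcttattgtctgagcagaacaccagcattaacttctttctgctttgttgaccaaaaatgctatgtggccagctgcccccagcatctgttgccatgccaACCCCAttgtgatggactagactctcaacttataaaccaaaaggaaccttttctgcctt
Hdac9, chr12:34528890-34529139: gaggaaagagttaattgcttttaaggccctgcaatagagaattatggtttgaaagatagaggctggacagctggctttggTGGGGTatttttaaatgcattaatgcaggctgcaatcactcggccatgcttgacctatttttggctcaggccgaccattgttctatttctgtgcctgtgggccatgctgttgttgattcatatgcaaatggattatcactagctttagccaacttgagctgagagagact
Each Hdac9 window held 1 match to TGNGGT, the first on the reverse strand and the second on the forward strand. Both matches read TGGGGT on their strand, and neither window held TGTGGT. Of 32851 windows of that length in the table, 40.1% held TGNGGT and 14% held TGTGGT. Among the members, 12 windows of 8 genes were in the table, of which 6 held TGNGGT and 3 held TGTGGT (those of Hdac2, Hdac6 and Hdac8). A match describes these letters and is no measurement of binding.

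**Figure D1:**
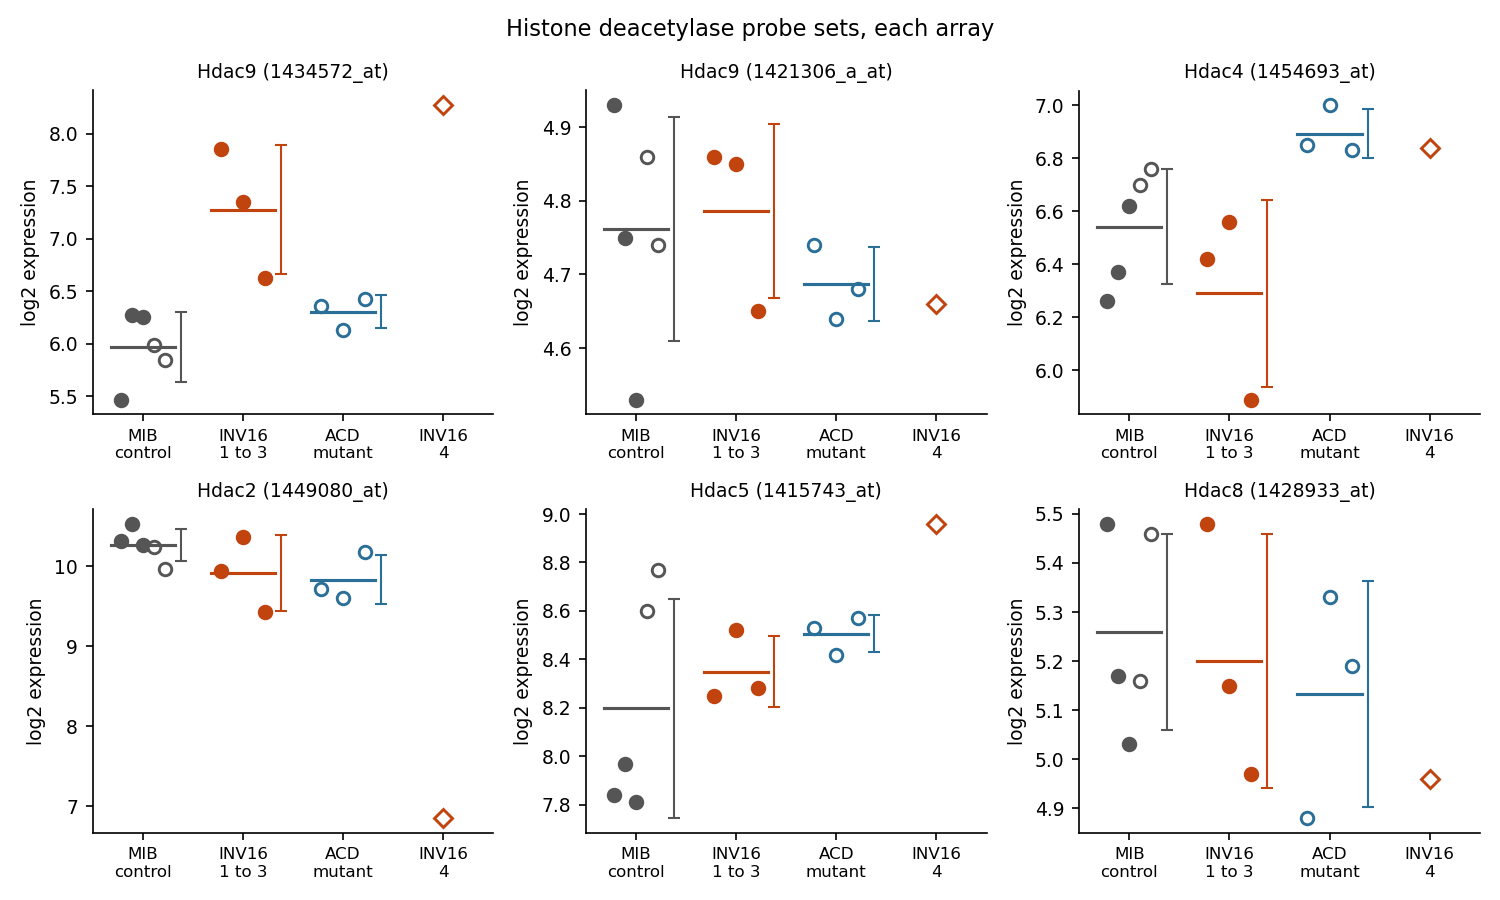
Log2 expression of 6 histone deacetylase probe sets on each array (points), with the group mean (line) and SD (bar) for MIB control, INV16 replicates 1 to 3 and the ACD mutant; INV16 replicate 4 is a diamond, filled points are arrays of the upper and open points of the lower side of the spike-in split, and each panel has its own axis. For Hdac9 (1434572_at) the INV16 arrays at 6.63 to 7.85 lie above the other groups, for Hdac5 the filled MIB control points lie below the open ones, and for Hdac8 the groups overlap.

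Hdac8, the class I enzyme that also deacetylates the cohesin subunit SMC3, showed no group difference beyond the spread of the arrays. Its single probe set 1428933_at measured 5.48, 5.15 and 4.97 log2 units in INV16 replicates 1 to 3. MIB control replicates 3 to 7 measured 5.48, 5.17, 5.03, 5.16 and 5.46, and ACD mutant replicates 1 to 3 measured 4.88, 5.33 and 5.19. The groups overlapped throughout, and INV16 replicate 4, at 4.96, lay within the range of the other 11 arrays. The log2 difference was -0.06 between INV16 and MIB control (interval -0.39 to 0.27, limma adjusted p = 0.906), -0.13 between the ACD mutant and MIB control (interval -0.46 to 0.21) and 0.07 between INV16 and the ACD mutant (interval -0.30 to 0.44). These intervals still allow log2 differences down to -0.46 and up to 0.44, and the mean of 5.21 over the 11 arrays lies little above the filter on low values (5.07).

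Across the family, 15 of the 17 probe sets passed the filter on low values, with Hdac9 1421306_a_at and Hdac11 1451229_at left out. In INV16 against MIB control, 1 of the 15 was called (adjusted p under 0.05), Hdac9, beside 312 of all 22677 probe sets tested (1.38%), of which 147 (0.648%) were higher in INV16. At an unadjusted p under 0.05 it was also 1 of 15, against 15.1% of all. The other 14 differences ran from -0.38 to 0.25, and 6 of 15 lay above 0. The median was -0.06 over the members and -0.02 over all probe sets tested. The groups did not overlap for 1 member, Hdac9, and for 8.85% of all.

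In the ACD mutant against MIB control 0 of the 15 were called by limma, against 1.7% of all probe sets tested, and 1 had an unadjusted p under 0.05 (Hdac4 1454693_at, against 19.6% of all). The median difference was 0.01 over the members and 0.00 over all, with 8 of 15 above 0. The groups did not overlap for that 1 Hdac4 probe set, against 12.9% of all. In INV16 against the ACD mutant 0 of 15 were called by limma (1.27% of all), and 2 had an unadjusted p under 0.05, Hdac9 and Hdac4 1454693_at (18.3% of all). Here 4 members did not overlap between groups, Hdac2 1439704_at, Hdac4 1454693_at, Hdac7 1420813_at and Hdac9, a share close to the 28% of all. On the Hdac7 set the groups all but touched, with the highest INV16 array at 8.12265 and the lowest ACD mutant array at 8.123. With all 12 arrays 0 of 15 were called in each comparison, where 0.212% of all were called in INV16 against MIB control, 0.022% in the ACD mutant against MIB control and 0.0882% in INV16 against the ACD mutant. At an unadjusted p under 0.05 those fits gave 2, 0 and 2 members. The comparisons share arrays, so their values are set side by side and not as independent results.

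**Figure D2:**
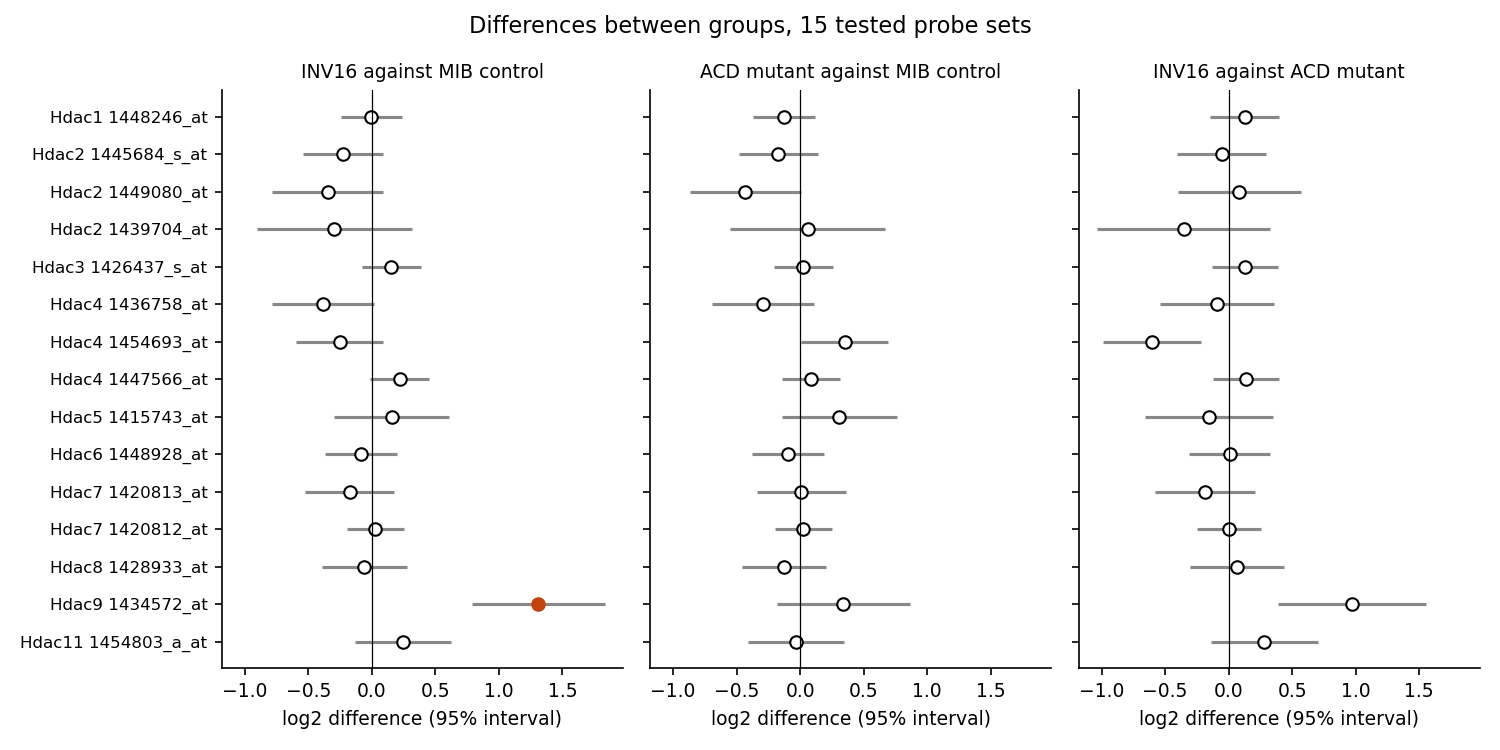
Log2 difference (point) with its 95% confidence interval (line) for the 15 tested histone deacetylase probe sets in each comparison, from the limma fit to 11 arrays; the filled point marks the adjusted p under 0.05. Hdac9 at 1.31 in INV16 against MIB control is the filled point, and the other 14 differences in that comparison lie between -0.38 and 0.25.

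Among the class I enzymes, Hdac2 had the larger differences, and none passed the test. Hdac2 is the close relative of Hdac1 and shares its complexes. Its probe set 1449080_at measured 10.31, 10.53, 10.27, 10.24 and 9.96 log2 units in MIB control replicates 3 to 7, then 9.94, 10.37 and 9.43 in INV16 replicates 1 to 3, and 9.71, 9.60 and 10.18 in ACD mutant replicates 1 to 3. Both fusion groups had lower means than MIB control, but each overlapped it. The log2 difference was -0.43 for the ACD mutant (interval -0.87 to 0.00, limma adjusted p = 0.260) and -0.35 for INV16 (adjusted p = 0.457). The second Hdac2 probe set 1445684_s_at gave -0.17 and -0.23, and 1439704_at gave 0.06 and -0.29. The last of these ran from 4.90 to 6.60 within MIB control alone.

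Hdac1 and Hdac3 were among the steadiest members. The catalytic subunit Hdac1 lay between 10.48 and 10.99 log2 units on the 11 arrays, with a pooled SD within groups of 0.13. Hdac3, the enzyme of the NCoR and SMRT complex, lay between 8.80 and 9.23 with a pooled SD of 0.12. The largest log2 difference between any groups was 0.13 in size for Hdac1 and 0.15 for Hdac3, and neither passed the test.

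Hdac4 was read by 3 probe sets that did not move together. Hdac4 is the class IIa enzyme best known as a partner of MEF2 factors in muscle and bone. Probe set 1454693_at measured 6.26, 6.37, 6.62, 6.70 and 6.76 log2 units in MIB control replicates 3 to 7, then 6.42, 6.56 and 5.89 in INV16 replicates 1 to 3, and 6.85, 7.00 and 6.83 in ACD mutant replicates 1 to 3. The ACD mutant arrays lay above all MIB control arrays and above INV16 replicates 1 to 3, while INV16 replicate 4, apart, measured 6.84. The log2 difference was 0.35 from MIB control to the ACD mutant (SE 0.16, limma adjusted p = 0.249) and -0.60 from the ACD mutant to INV16 (SE 0.18, adjusted p = 0.106), and neither passed. On this probe set the lower-side MIB control arrays lay 0.31 above the upper-side ones without overlap, and all ACD mutant arrays are of the lower side. With the spike-in split as a block the first difference was 0.16.

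The other Hdac4 probe sets gave other signs. Probe set 1436758_at measured 7.35, 6.92, 6.77, 6.65 and 6.77 log2 units in MIB control replicates 3 to 7, 6.37, 6.93 and 6.23 in INV16 replicates 1 to 3, and 6.39, 6.60 and 6.81 in ACD mutant replicates 1 to 3. Its log2 difference from MIB control was -0.38 in INV16 (limma adjusted p = 0.357) and -0.29 in the ACD mutant (adjusted p = 0.431). Probe set 1447566_at measured 5.12, 5.22, 5.26, 5.02 and 5.14 in MIB control, 5.30, 5.24 and 5.57 in INV16 and 5.12, 5.31 and 5.28 in the ACD mutant. It was 0.22 above MIB control in INV16 (adjusted p = 0.356) and 0.09 above in the ACD mutant. Among INV16 replicates 1 to 3, replicate 3 was the lowest array on the first and second of these Hdac4 sets and the highest on the third. No single direction thus describes Hdac4.

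Within MIB control, the only group of the 11 arrays with both sides, Hdac5 and Hdac7 differed between the sides of the spike-in split. Hdac5, a class IIa enzyme regulated by protein kinase D, measured 7.84, 7.97 and 7.81 log2 units on the upper-side MIB control arrays and 8.60 and 8.77 on the lower-side ones, a gap of 0.81 within the same group. INV16 replicates 1 to 3 measured 8.25, 8.52 and 8.28, and ACD mutant replicates 1 to 3 measured 8.53, 8.42 and 8.57. The log2 difference between INV16 and MIB control was therefore 0.16 over all 11 arrays and 0.48 with the split as a block (SE 0.11, limma adjusted p = 0.0767). On the upper side alone it was by construction the same 0.48 (adjusted p = 0.225). For the ACD mutant the same change turned the sign, from 0.31 to -0.18, and no value passed the test. The cause of the split was not tested.

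Hdac7, the class IIa enzyme known from thymocytes and vessel walls, also differed between the sides within MIB control on its probe set 1420813_at. Its MIB control mean was 8.04 on the upper and 8.58 on the lower side, and INV16 at 8.02 to 8.12 lay within the upper-side MIB control range of 7.89 to 8.15. The ACD mutant at 8.12 to 8.37 lay below the lower-side MIB control range of 8.45 to 8.72. The second Hdac7 set, 1420812_at, differed between any groups by at most 0.03. In all, the MIB control arrays of the 2 sides did not overlap for 6 of the 15 members (40%), close to the 36.9% over all probe sets tested. Hdac9 was not among the 6, with a gap of -0.08. Hdac4, Hdac5 and Hdac7 values by side were singled out after they were seen.

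Hdac6 and Hdac11 complete the family. Hdac6, the tubulin deacetylase of the cytoplasm, lay between 8.60 and 9.20 log2 units on the 11 arrays and differed by -0.09 in INV16 and by -0.10 in the ACD mutant against MIB control. Hdac11, the class IV enzyme that removes long fatty acyl groups, measured 7.63, 8.09, 7.45, 7.25 and 7.56 on probe set 1454803_a_at in MIB control replicates 3 to 7. It measured 8.09, 7.65 and 7.78 in INV16 replicates 1 to 3 and 7.78, 7.54 and 7.37 in ACD mutant replicates 1 to 3. These groups overlap. The Hdac11 differences were 0.25 (INV16 against MIB control) and 0.28 (INV16 against the ACD mutant, limma adjusted p = 0.483), the latter -0.03 with the spike-in block. Its other probe set 1451229_at, below the filter, lay between 4.80 and 5.16.

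INV16 replicate 4 lay outside the range of the other 11 arrays for 11 of the 17 deacetylase probe sets, below for 6 and above for 5. Among the tested ones this was 66.7% of 15, against 69.8% of all probe sets tested, so the family was displaced about as often as the rest of the array. Below the range were Hdac1 (10.15 log2 units against 10.48 to 10.99), Hdac3 (7.68 against 8.80 to 9.23) and Hdac6 (8.39 against 8.60 to 9.20). All 3 Hdac2 sets lay below too, 1449080_at at 6.85 against 9.43 to 10.53, 1445684_s_at at 9.63 against 11.07 to 11.79 and 1439704_at at 4.88 against 4.90 to 6.60. Above the range were Hdac9 1434572_at (8.27 against 5.47 to 7.85), Hdac5 (8.96 against 7.81 to 8.77), Hdac4 1447566_at (5.67 against 5.02 to 5.57) and both Hdac11 sets (8.73 against 7.25 to 8.09 and 5.50 against 4.80 to 5.16). Hdac7, Hdac8 and the remaining Hdac4 and Hdac9 sets lay within the range, Hdac9 1421306_a_at at 4.66 against 4.53 to 4.93. On this array 9 of 10 mast cell and basophil markers lay above and 6 of 10 progenitor markers below the same range. The part of such cells in these values was not tested. As 1 array it allows no test.

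**Figure D3:**
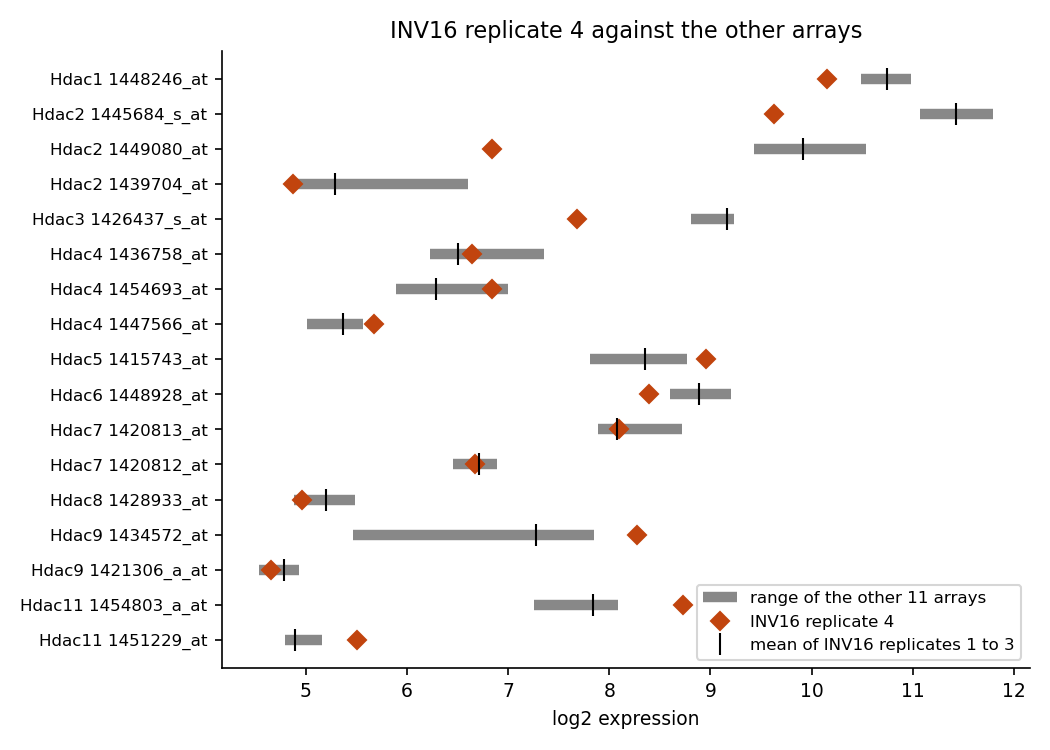
Log2 expression of the 17 histone deacetylase probe sets on INV16 replicate 4 (diamonds), with the range of the other 11 arrays (grey bars) and the mean of INV16 replicates 1 to 3 (ticks). Hdac2 1449080_at at 6.85 lies farthest below its range, and Hdac11 and Hdac9 1434572_at lie above theirs.

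Markers of other cells were read on the same arrays, since Hdac9 is expressed in several blood lineages. Of 57 markers on the array, read by 1 probe set each, 44 were tested. In INV16 against MIB control 4 of the 44 were called by limma, 3 higher and 1 lower, beside 1.38% of all probe sets tested. Higher were Procr, a surface marker of stem cells (1.48, adjusted p = 0.0314), Tcf4, a regulator of plasmacytoid dendritic cells (0.75, adjusted p = 0.0226), and Selp of platelets (0.95, adjusted p = 0.0162). The rest of their lists did not follow as a whole, and none was called. All other platelet markers were lower, from -0.98 (Cd9) to -0.18 (Itga2b). The other dendritic markers ran from -0.12 (Bst2) to 0.38 (Flt3), and the other progenitor markers from -0.71 (Gata2) to 0.73 (Slamf1). The neutrophil gene S100a8 was lower, by -3.08 (adjusted p = 0.0190). The other markers of its list ran from -2.20 (S100a9, adjusted p = 0.0742) to 0.35 (Cd14). The dendritic list of 7 measured markers averaged 6.85 to 7.07 log2 units in INV16, 6.76 to 6.87 in MIB control and 6.76 to 6.93 in the ACD mutant, and Xcr1 was below the filter on every array. The 9 monocyte, macrophage and neutrophil markers averaged 7.37 to 7.98 in INV16 and 7.85 to 9.39 in MIB control, with Itgam below the filter in both. The 10 progenitor markers averaged 9.86 to 10.54 and 10.00 to 10.07, the 10 mast cell and basophil markers 6.65 to 6.71 and 6.38 to 7.08, and the 7 megakaryocyte and platelet markers 8.01 to 8.08 and 7.99 to 9.55. The 6 erythroid markers averaged 6.47 to 6.58 and 6.46 to 6.79, and the 8 lymphocyte markers 5.42 to 5.78 and 5.36 to 5.55. The part of any of these in the Hdac9 difference was not tested.

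The probe sets with per-array patterns most like Hdac9 1434572_at were found by the root mean square difference between values centred on their own mean, over the 11 arrays. The nearest was the lymphocyte surface receptor gene Ly9 (0.17 log2 units, its own SD being 0.53), then the protease Tmprss3 (0.24), Raph1 of the cell skeleton (0.24), the prostacyclin receptor Ptgir (0.25) and Card6 (0.27). They were chosen by this likeness, so their INV16 against MIB control differences of 1.02, 0.96, 1.08, 1.25 and 0.87 are a description. On INV16 replicate 4, which took no part in the choice, Hdac9 lay above the range of the 11 arrays, as did Ptgir (9.51 against 6.40 to 8.27) and Card6 (7.08 against 4.81 to 6.17). Ly9 (5.52 against 5.71 to 7.51), Tmprss3 (5.19 against 6.37 to 7.98) and Raph1 (6.50 against 6.82 to 8.52) lay below it.

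Genes that work with the deacetylases were read through 9 lists of 112 symbols, of which 106 were on the array with 255 tested probe sets. In INV16 against MIB control 6 probe sets were called higher and 6 lower (4.71% of 255, against 1.38% of all). In the ACD mutant against MIB control 3 were higher and 0 lower (1.18%, against 1.7% of all), and in INV16 against the ACD mutant 0 were higher and 8 lower (3.14%, against 1.27% of all). With all 12 arrays the calls in these comparisons numbered 5, 1 and 3. Several called probe sets read the same gene, so these shares count Prkd2 and Gse1 more than once, and the last also Gatad2a.

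**Figure D4:**
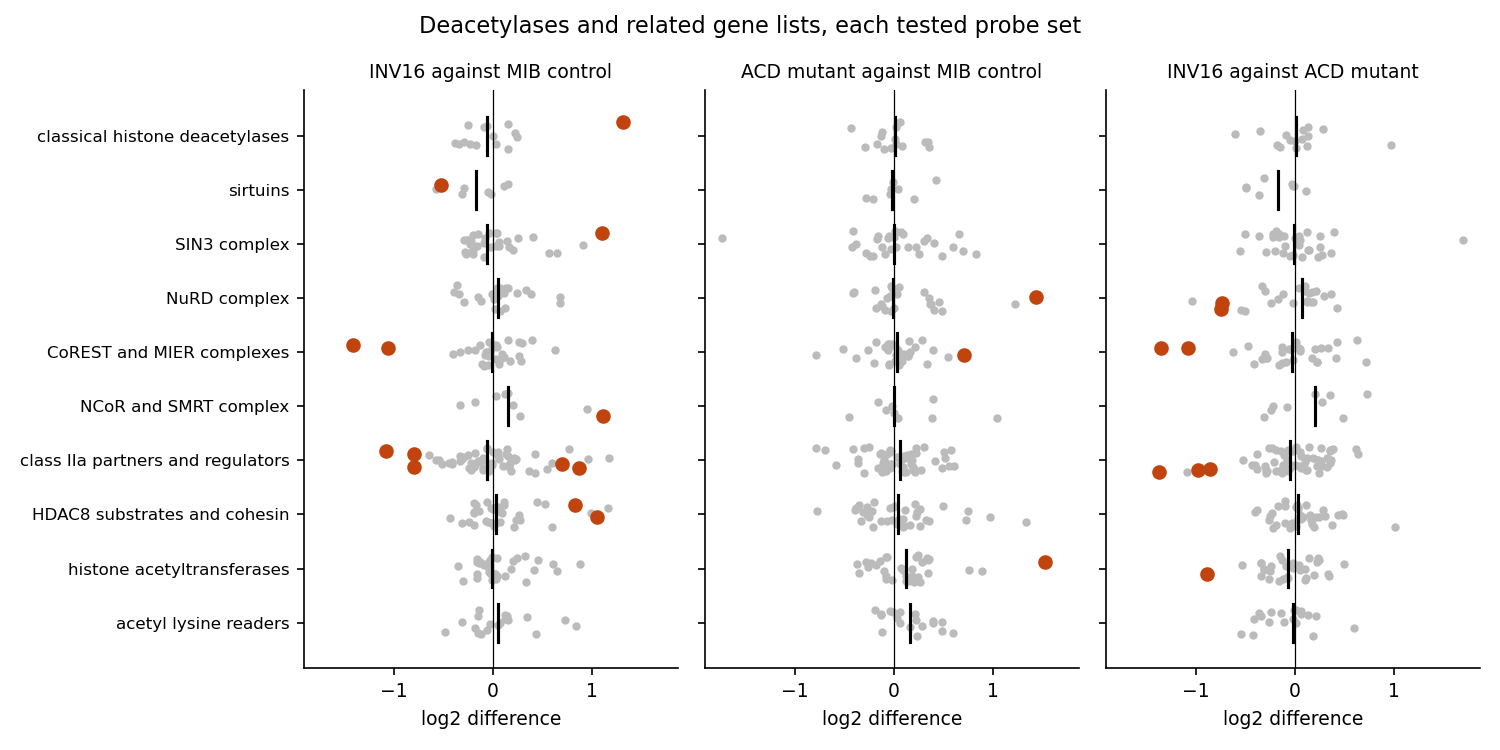
Log2 difference of every tested probe set (point) of the histone deacetylases and of 9 related gene lists in each comparison, with the list's median (bar); larger orange points have a limma adjusted p under 0.05. The list medians lie between -0.17 and 0.20, and called points are few or none in every list, with the Prkd2 and Gse1 sets on the left in both INV16 comparisons.

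The list of class IIa partners and regulators held the kinase Prkd2, which was lower in INV16. Prkd2 encodes protein kinase D2, of the kinase family that phosphorylates class IIa deacetylases and sends them out of the nucleus. Its probe set 1434333_a_at measured 6.60, 6.64 and 6.57 log2 units in INV16 replicates 1 to 3. MIB control replicates 3 to 7 measured 7.67, 7.26, 7.62, 7.79 and 8.06, ACD mutant replicates 1 to 3 measured 7.91 to 8.03, and INV16 replicate 4 measured 6.56. All INV16 arrays, replicate 4 included, lay below all others.

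Prkd2 fell by 1.08 on the log2 scale in INV16 against MIB control (SE 0.15, limma adjusted p = 0.00494) and by 1.38 against the ACD mutant (SE 0.16, adjusted p = 0.00351). Probe sets 1434334_at and 1436589_x_at fell by 0.80 each against MIB control (adjusted p = 0.00898 and 0.0110) and by 0.98 and 0.86 against the ACD mutant (adjusted p = 0.00758 and 0.0144). The other set, 1437509_x_at, gave -0.29 and -0.39 and did not pass. Prkd2 stayed called against MIB control with all 12 arrays (adjusted p = 0.0136, 0.0364 and 0.0373) and with the spike-in block (0.0116, 0.0331 and 0.0365), though on the upper side alone none of the 3 sets was called, the first giving -0.91 (adjusted p = 0.0838) and the others adjusted p = 0.134 and 0.119. Against the ACD mutant none was called with the block, which gave -0.97, -0.76 and -0.63 (adjusted p = 0.203, 0.319 and 0.370), and 1436589_x_at was not called with all 12 arrays (adjusted p = 0.0611). Leaving out 1 array of 11 never ended the call of 1434333_a_at, whose differences from MIB control then ran from -1.18 to -0.98. Against MIB control 1434334_at lost its call without INV16 replicate 1 (adjusted p = 0.0664) and 1436589_x_at without INV16 replicate 1 or 2 (up to 0.0648). Against the ACD mutant 1436589_x_at lost it without INV16 replicate 1 or 2 or ACD mutant replicate 2 (up to 0.0852).

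The same list held the MEF2 factor Mef2a, the DNA-binding partner that class IIa enzymes repress. Probe set 1421252_a_at measured 7.57, 7.71 and 7.40 log2 units in INV16 replicates 1 to 3. MIB control replicates 3 to 7 measured 7.12, 6.94, 6.31, 6.39 and 6.69, and ACD mutant replicates 1 to 3 measured 7.34, 7.42 and 7.13. These INV16 arrays lay above MIB control without overlap and overlapped the ACD mutant, while INV16 replicate 4, apart, measured 6.72. Mef2a rose by 0.87 against MIB control (SE 0.18, limma adjusted p = 0.0309), and its other 4 sets gave 0.18 to 0.96 without passing. The repressor Bcl6, which recruits class IIa deacetylases, rose by 0.69 (adjusted p = 0.0278), INV16 at 8.57 to 8.69 and MIB control at 7.60 to 8.19. On INV16 replicate 4 Bcl6 measured 5.42, and with that array its difference was -0.11. The list's median was -0.06 with 25 of 60 above 0.

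Among the CoREST and MIER complexes, which carry Hdac1 or Hdac2, the subunit gene Gse1 was lower in INV16. Probe set 1455476_a_at measured 7.93, 7.62 and 7.59 log2 units in INV16 replicates 1 to 3. MIB control replicates 3 to 7 measured 9.14, 9.19, 8.95, 9.07 and 9.27, ACD mutant replicates 1 to 3 measured 8.86, 8.99 and 9.34, and INV16 replicate 4 measured 7.19. All INV16 arrays lay below the other groups. Gse1 fell by 1.41 against MIB control (SE 0.13, limma adjusted p = 0.000564) and by 1.35 against the ACD mutant (SE 0.15, adjusted p = 0.00226).

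Gse1 probe set 1429653_at fell by 1.06 and 1.08 in the same comparisons (adjusted p = 0.00672 and 0.0131), while 1453222_at gave -0.25 and -0.06 and did not pass. The first Gse1 set kept its call against MIB control with all 12 arrays (adjusted p = 0.00539), with the spike-in block (0.00407), on the upper side alone (-1.38, adjusted p = 0.0353) and without any single array. Against the ACD mutant the block gave -1.27 (adjusted p = 0.139). The set 1429653_at was lost against MIB control without INV16 replicate 1 (adjusted p = 0.0539), and against the ACD mutant without INV16 replicate 1 or 2 or ACD mutant replicate 2 (up to 0.0767), with all 12 arrays (0.0733) and with the spike-in block (-0.73, adjusted p = 0.369). On the upper side alone it was not called against MIB control (adjusted p = 0.0726). Rcor3 of the same list rose in the ACD mutant against MIB control by 0.71 (adjusted p = 0.0380) on 1 of its 6 sets. That call was lost with all 12 arrays (adjusted p = 0.680) and in 6 of the 11 fits without 1 array (up to 0.183). The list's median in INV16 against MIB control was -0.01.

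**Figure D5:**
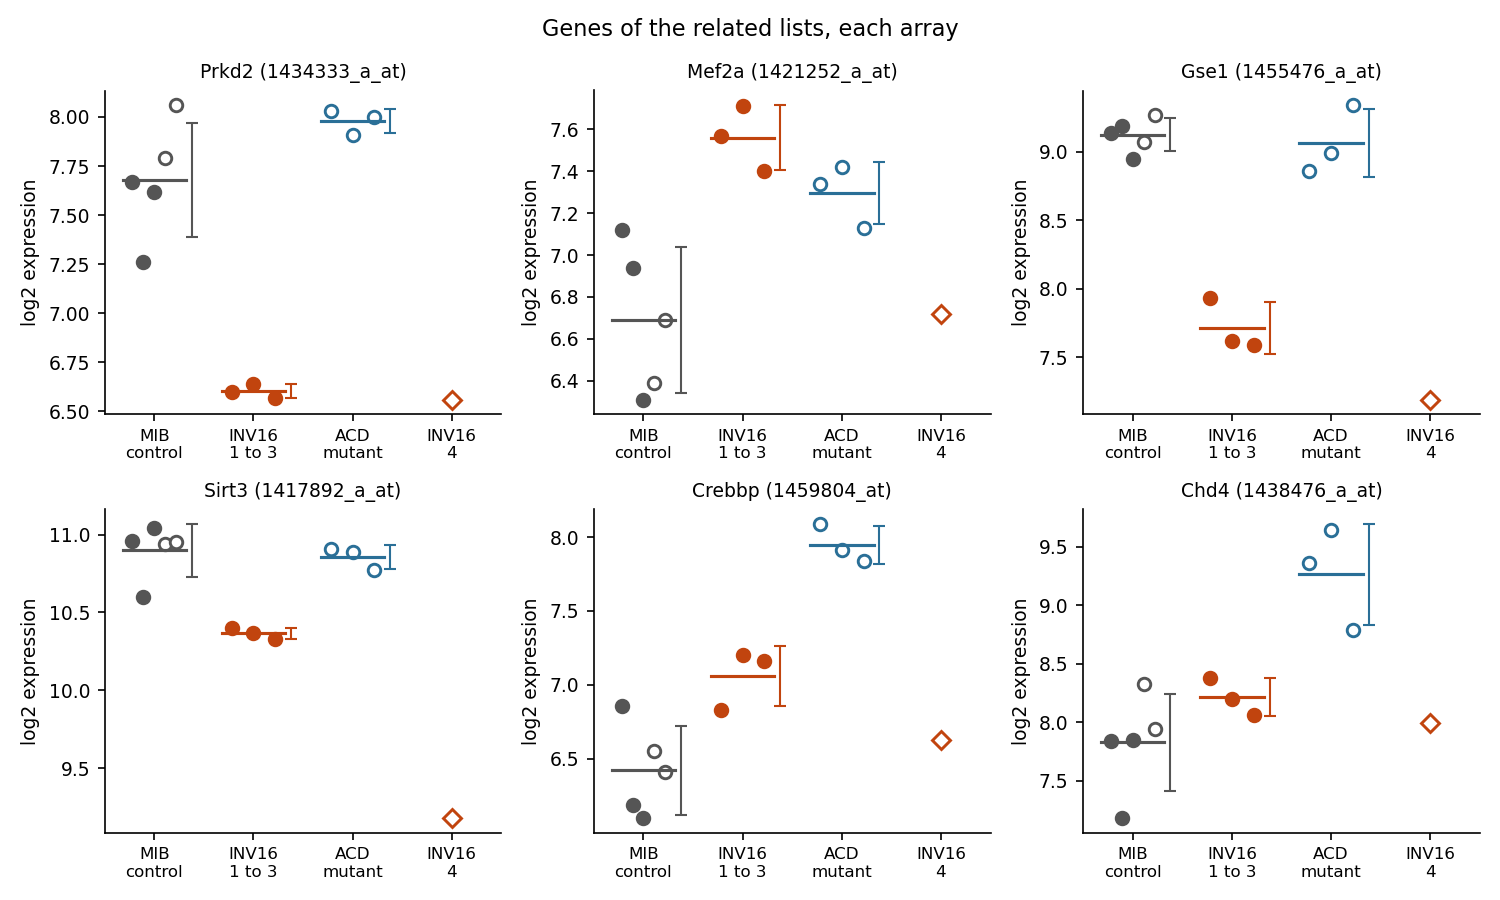
Log2 expression of 6 genes of the related lists on each array (points), with group mean (line) and SD (bar), INV16 replicate 4 as a diamond, filled points for the upper and open points for the lower side of the spike-in split, and an axis of its own per panel. In Prkd2, Gse1 and Sirt3 the INV16 arrays lie below both other groups, and in Crebbp and Chd4 the ACD mutant arrays lie above them.

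The acetyltransferases and the NuRD complex gave calls for the ACD mutant. Crebbp encodes the acetyltransferase CBP, which acts opposite to the deacetylases. Its probe set 1459804_at measured 8.09, 7.91 and 7.84 log2 units in ACD mutant replicates 1 to 3, then 6.86, 6.19, 6.10, 6.55 and 6.41 in MIB control replicates 3 to 7 and 6.83, 7.20 and 7.16 in INV16 replicates 1 to 3. The ACD mutant lay above both groups. Crebbp rose by 1.53 from MIB control to the ACD mutant (SE 0.16, limma adjusted p = 0.00424), and 0.0280 was the adjusted p with all 12 arrays and 0.0352 with the spike-in block. INV16 was 0.89 below the ACD mutant (adjusted p = 0.0373), a call lost with the block (0.387), with all 12 arrays (0.116) and without any 1 of the 6 arrays compared (up to 0.145). The other 3 Crebbp sets were 0.24 to 0.34 above MIB control and did not pass. The acetyltransferase list had a median of 0.12 in the ACD mutant against MIB control, with 20 of 33 above 0.

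Chd4, the ATPase of the NuRD complex, measured 9.36, 9.64 and 8.79 log2 units on probe set 1438476_a_at in ACD mutant replicates 1 to 3 and 7.18 to 8.33 in MIB control. It rose by 1.43 in the ACD mutant (SE 0.23, limma adjusted p = 0.0187) but was not called with all 12 arrays (adjusted p = 0.151), with the spike-in block (1.13, adjusted p = 0.103) or without ACD mutant replicates 1 or 2, when the adjusted p reached 0.116. Its other sets gave 1.23 and 0.00. Gatad2a of NuRD was lower in INV16 than in the ACD mutant on 2 of 5 sets, by -0.75 (adjusted p = 0.0258) and -0.73 (adjusted p = 0.0379), with -0.44 (adjusted p = 0.426) and -0.59 (adjusted p = 0.415) under the block. Both Gatad2a calls were also lost with all 12 arrays and without any 1 of the 6 arrays compared, and the second without MIB control replicate 5 too (adjusted p up to 0.166).

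In the remaining lists the calls were single probe sets in INV16 against MIB control. The mitochondrial deacetylase Sirt3 fell by 0.53 on the log2 scale (limma adjusted p = 0.0342), with INV16 at 10.33 to 10.40 and MIB control at 10.60 to 11.04, and 2 of 8 sirtuin sets lay above 0. Arid4b of the SIN3 complex rose by 1.10 (adjusted p = 0.0308), its other sets giving 0.91 and -0.28. Tbl1x of the NCoR and SMRT complex rose by 1.11 (adjusted p = 0.0406), its others giving 0.95 and 0.27.

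Hdac8 substrates and the cohesin ring gave 2 calls in the same comparison. The ring subunit gene Smc1a rose by 1.05 (limma adjusted p = 0.0328, its other sets 0.99 and -0.07) and the cohesin loader Nipbl by 0.83 (adjusted p = 0.0370, its other sets -0.19 to 0.60). That list's median was 0.03, with 22 of 38 above 0. Among the acetyl lysine readers 0 were called by limma, and the smallest p was that of Brd2 (0.83, adjusted p = 0.124). None of the calls in Mef2a, Bcl6, Sirt3, Arid4b, Tbl1x, Smc1a and Nipbl held with all 12 arrays (adjusted p = 0.0942 to 0.917) or with the spike-in block (0.0767 to 0.103). When 1 of the 11 arrays was left out, Bcl6 lost its call in 4 fits, Mef2a and Smc1a in 6, Arid4b in 7, Nipbl in 8 and Sirt3 and Tbl1x in 9, with adjusted p-values up to 0.155. On these probe sets the ACD mutant differed from MIB control by 0.61 (Mef2a), 0.51 (Bcl6), 0.82 (Arid4b), 0.75 (Smc1a) and 0.72 (Nipbl). For Tbl1x it was 0.38 and for Sirt3 -0.04, and none was called (smallest limma adjusted p = 0.0545). INV16 against the ACD mutant gave, in the same order, 0.27, 0.19, 0.28, 0.30, 0.11, 0.73 and -0.49, none called.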

How the data were processed

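The submitters' table gives the authors' deposited log2 values for 12 Affymetrix arrays, 1 per sample. Per the labels' protocols, poly-A RNA was amplified over 2 cycles and labelled with biotin. Background correction, normalisation and summarisation are not given in the sources used here. Names came from the platform annotation, and probe sets with several symbols (932) or none (9160) and 64 controls were left out. Entrez identifiers of 10 of 10 members matched RefSeq. Probe sets with a mean over 11 arrays above the 40th percentile (5.07 log2 units) were tested, 22677 in all, each on its own. Group means were fitted with limma 3.58.1 in R 4.3.3 (two-sided, 8 residual and 4.66 prior degrees of freedom, Benjamini-Hochberg over all tested). The procedure was also run on simulated data with independent noise, which held no spike-in split and so cannot speak for its effect here. Array medians were 5.62 to 5.79, and precision is limited by how few arrays there are. Arrays within a group differed with an SD of 0.23 to 0.37 across probe sets, so none was a duplicate. Unused columns of sample values numbered 0. Members, lists and tests were chosen with earlier results of these data known. Named are all members, up to 4 called genes of each list (otherwise the 1 with the smallest p), and the 5 probe sets nearest to Hdac9. Alternatives were all 12 arrays, array weights, other filters, quantile normalisation, 1 probe set per gene, fits to only the compared groups, an intensity trend, blocks, and leaving out each array.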

Additional observations from a re-analysis of the deposited data

Results flagged for a closer look

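Of 34 groups of 4 or 5 arrays examined, 3 had an array far from the others by Dixon's ratio at the 95% level, where chance alone gives about 1 in 20. Hdac1 1448246_at measured 10.99 log2 units on MIB control replicate 5, and the nearest MIB control array measured 10.72. On INV16 replicate 4, Hdac3 1426437_s_at measured 7.68 and the nearest INV16 array 9.04. On the same array Hdac11 1451229_at, below the filter on low values, measured 5.50 and the nearest INV16 array 4.93.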

How the results depend on the processing

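The count of 1 member called in INV16 against MIB control (Hdac9) became 0 with all 12 arrays, with a fit to only the compared groups (adjusted p = 0.0637), with the spike-in split as a block and within its upper side, and it ran from 0 to 1 when 1 array was left out. Hdac9 kept its call in 15 of 22 alternatives. The count in the ACD mutant against MIB control was 0 throughout. In INV16 against the ACD mutant it was 2 (Hdac9 and Hdac4 1454693_at) with array weights, where INV16 replicate 1 had a weight of 5.07, and 0 to 1 when 1 array was left out. The sign turned for Hdac8 in INV16 against MIB control (0.17 with array weights, and -0.20 to 0.058 over the fits without 1 array), in the ACD mutant against MIB control (-0.23 to 0.000885) and in INV16 against the ACD mutant (-0.072 to 0.18). It turned for Hdac11 in INV16 against the ACD mutant (-0.034 with the spike-in block) and for Bcl6 in INV16 against MIB control (-0.11 with all 12 arrays). The causes were not tested. Over all probe sets, 312 calls in INV16 against MIB control became 48 with 12 arrays, 120 with only the compared groups, 169 with the spike-in block, 12 within its upper side and 38 to 619 without 1 array. The other comparisons gave 10 to 760 (ACD mutant against MIB control) and 43 to 508 (INV16 against the ACD mutant) without 1 array. With the spike-in block they gave 20 in place of 386 and 0 in place of 287, so no call in INV16 against the ACD mutant, whose arrays lie on opposite sides of the split, was kept. They gave 5 and 20 with 12 arrays, 121 and 1054 with only the compared groups, 7 and 271 with the replicate block, and 93 within the lower side for the ACD mutant against MIB control. In the ACD mutant against MIB control quantile normalisation gave 582 and 1 probe set per gene, with fewer tests, 217. Array weights gave 2329, 1519 and 3221 in the 3 comparisons. Arrays of the same replicate number did not deviate together (r -0.13, -0.20 and -0.32 for INV16 and ACD mutant 1 to 3). With MIB control replicate 3, r was -0.32 for INV16 and 0.02 for the ACD mutant. So few arrays, on different sides of the split in most of these pairs, cannot settle whether the numbers pair samples. With the replicate block 0 members and 0 probe sets in all were called in INV16 against MIB control, which share only replicate 3, and Hdac9 gave 1.55 (adjusted p = 0.254).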
